A study of Homo sapiens with 9 samples.

Results

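RNA of BON-1 cells, a long-established human line grown from a neuroendocrine tumour of the pancreas, was measured on Illumina HumanHT-12 v4 BeadChips after knockdown of RABL6A. RABL6A is a RAB-like GTPase encoded by RABL6. The comparison concerns 6 of the 9 arrays of the study, which were divided into a pair of groups of 3. The members were chosen by the correlations among their own expression profiles and not by their labels. Profile group A holds the arrays labelled shRNA 2 replicate 1, shRNA 1 replicate 2 and shRNA 2 replicate 3. Profile group B holds those labelled shRNA 1 replicate 1, shRNA 2 replicate 2 and shRNA 1 replicate 3. All 6 cell samples carried a short hairpin RNA against RABL6A in the lentiviral vector pLKO.1, either shRNA 1 or shRNA 2 by label, and the 3 vector samples carried the control vector. The labels name cell sets generated separately, do not say whether a replicate number marks such a set, and do not give the hairpin sequences. Any p-value below therefore measures the spread between these samples, which may be technical. Its title names G1 to S phase progression and proliferation as the processes in question.

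An shRNA lowers its target by guiding the RNA interference machinery to matching transcripts, and each hairpin can also lower other transcripts that match part of its guide strand, which is why such studies use more than 1 hairpin. Passage from G1 into S phase is driven by cyclin-dependent kinases that phosphorylate the retinoblastoma protein and release E2F factors, which then switch on the genes of DNA replication. BON-1 cells make serotonin and chromogranins, which are hallmarks of neuroendocrine cells.

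The profile groups were formed from the same values that are described below. Every gene was therefore used in forming them, and the differences between the groups are given as a description with no test. The small spread within each group is likewise part of how the groups were chosen. Array values are log2 signals after background correction and quantile normalization, and a difference of 1 is a 2-fold difference. A difference is always profile group A minus profile group B, so that positive values are higher in A. For a single gene, array values are listed in the order of the replicate numbers 1, 2 and 3, which in A are the arrays labelled shRNA 2, shRNA 1 and shRNA 2, and in B those labelled shRNA 1, shRNA 2 and shRNA 1.

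Across 12498 genes, the 3 arrays of profile group A had Pearson correlations of 0.988 to 0.994 with each other, and those of B 0.988 to 0.995. Between the groups the correlations were 0.933 to 0.956. The vector arrays correlated at 0.948 to 0.972 with A and at 0.933 to 0.960 with B. Each of the 6 knockdown arrays had its closest partner inside its own profile group, and each of these partners carried the other shRNA on its label. The arrays labelled shRNA 2 replicate 1 and shRNA 1 replicate 2 were each other's closest match at 0.994, as were shRNA 1 replicate 1 and shRNA 2 replicate 2 at 0.995. In both groups the array numbered 3 stood closer to vector than the other members did. Such correlations run over genes, and genes are not independent replicates. On the 6 arrays 20214 to 21201 probes were detected.

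**Figure D1:**
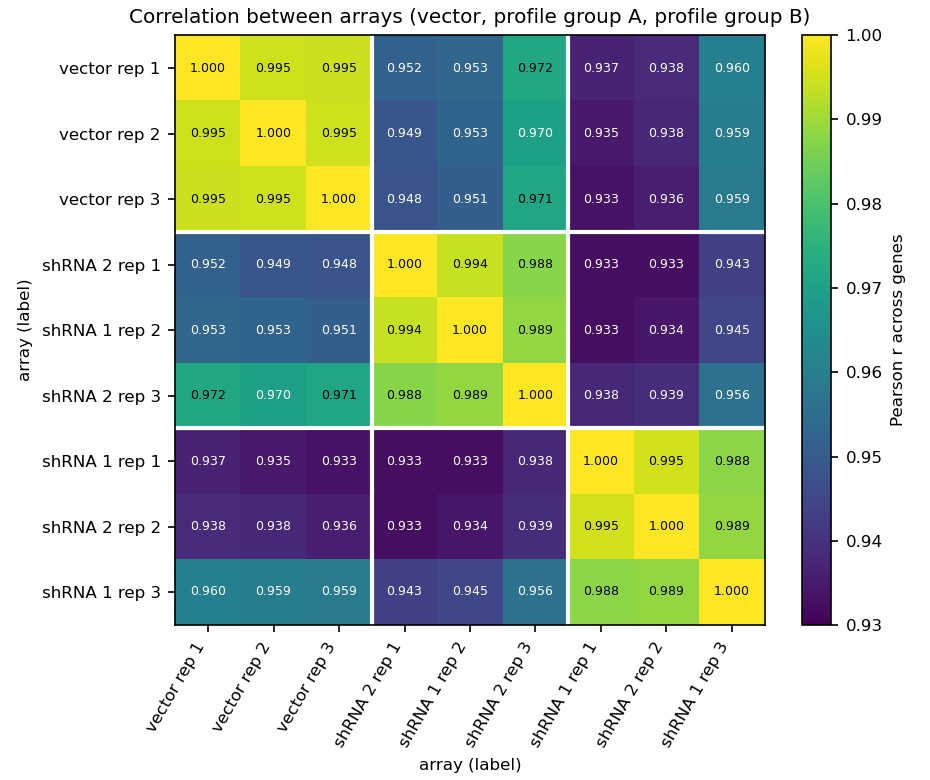
Pearson correlation across 12498 genes for each pair of the 9 arrays, ordered as vector, profile group A and profile group B, with white lines between the groups. Within A and B the values are 0.988 to 0.995, and between A and B they are 0.933 to 0.956.

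By label the comparison of the hairpins had no called gene. With limma on all 9 arrays, shRNA 2 minus shRNA 1 gave 0 genes at an adjusted p under 0.05, which is 0% of 12498, and the smallest adjusted p was 0.988. Without adjustment 96 genes were under 0.05, or 0.768%. Each label holds arrays of both profile groups, which widens the spread within a label. The absence of called genes therefore does not show that the hairpins acted alike. Without the shRNA arrays numbered 2, which leaves 7 arrays, 5152 genes passed, or 41.2%, of which 2416 were higher and 2736 lower with shRNA 2. Those arrays were left out because of their correlations, so the 5152 calls describe how far the remaining arrays lie apart and are not independent evidence of a hairpin effect.

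The same pattern shows gene by gene when shRNA 2 minus shRNA 1 is taken within each replicate number. These 3 differences share no array, but the profile groups were formed from the same values, so they are a description too. The differences in numbers 1 and 3 correlated at 0.869 across genes, whereas number 2 correlated at -0.934 with number 1 and at -0.870 with number 3. In numbers 1 and 3 alike, 554 genes were at least 2-fold higher with shRNA 2. In number 2 all 554 had the opposite sign, 518 of them by at least 2-fold, with a median of -1.61 against 1.68 and 1.39 in numbers 1 and 3. Another 635 genes were at least 2-fold lower with shRNA 2 in numbers 1 and 3, and in number 2 all 635 were higher, 607 of them by at least 2-fold. Of all genes, 86.0% had opposite signs in numbers 1 and 2. Array values alone do not tell which arrays carried which hairpin, and an exchange of samples cannot be told apart here from other causes.

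**Figure D2:**
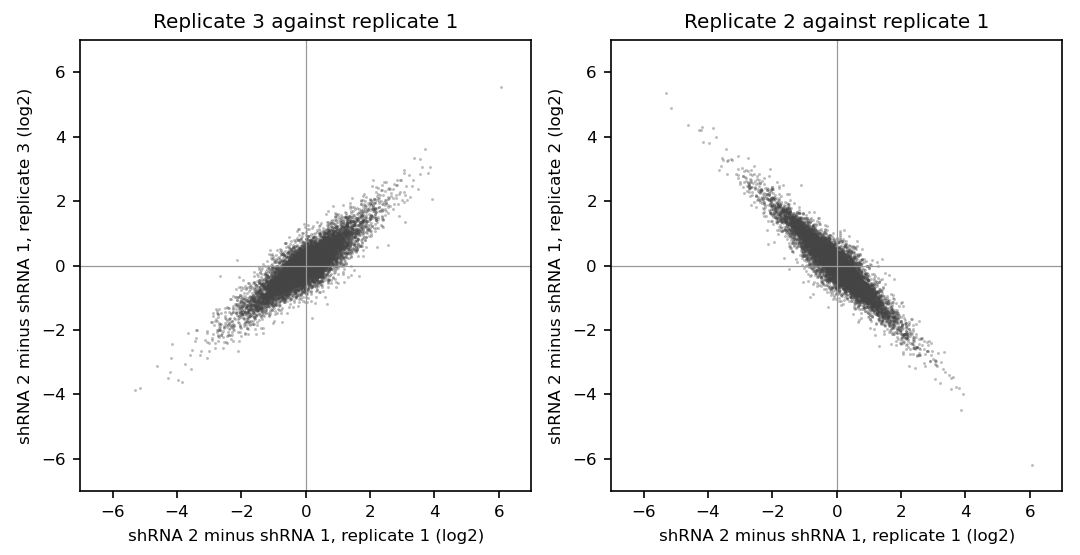
Difference shRNA 2 minus shRNA 1 by label for each of 12498 genes, on a log2 scale, in replicate number 3 (left) and number 2 (right) against number 1. The points rise along the diagonal for number 3 (r = 0.869) and fall along the opposite diagonal for number 2 (r = -0.934).

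RABL6 itself did not separate the profile groups. It read 5.67, 5.99 and 5.69 in A and 6.01, 5.69 and 5.22 in B, against 7.57, 7.73 and 7.82 with vector. The values of A and B overlap, and the mean difference was 0.14. All 6 knockdown arrays lay below all vector arrays.

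Between the profile groups, 816 genes were at least 2-fold higher in A with no overlap of the array values, and 962 were at least 2-fold higher in B. These are 6.53% and 7.7% of the genes measured, 14.2% together. Counting every gene whose array values did not overlap, whatever the size, 3381 were higher in A (27.1%) and 3870 higher in B (31%), together 58%. At least 4-fold, 119 were higher in A and 123 in B. Of the 816 and 962 genes, 28 and 56 were not detected on any array of the lower group, so their size rests on background signal. With probes detected on all 9 arrays the counts were 728 and 817. The median difference over all genes was -0.01, and the median size of a difference was 0.38, beside median SDs of 0.16 within A, 0.14 within B and 0.11 within vector. The genes nearest the 2-fold limit lay at 0.9997 and 1.0014 on the A side and at -0.9996 and -1.0002 on the B side.

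Vector levels show which group had moved away from the control. Of the 816 genes higher in A, 367 (45.0%) were at least 2-fold below vector in B and within 2-fold of vector in A. For 188 (23.0%) A was at least 2-fold above vector and B within 2-fold. Of the 962 genes higher in B, 343 (35.7%) were at least 2-fold above vector in B alone and 237 (24.6%) at least 2-fold below vector in A alone. In 14 and 22 genes the groups lay at least 2-fold away from vector on opposite sides. The remaining genes were within 2-fold of vector in both groups (217 and 348) or 2-fold away on the same side (30 and 12).

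The genes that differed most, 14 in each direction, were ranked by the smallest of the 3 differences taken within a replicate number. They follow by role, first those higher in A.

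DKK1, the gene of a secreted inhibitor of Wnt signalling, had the largest difference of all. It read 12.02, 11.99 and 11.45 in A and 5.97, 5.79 and 5.91 in B, while vector read 9.57, 9.33 and 9.04. The 3 sets of arrays were fully apart, with vector between the groups, and the difference of 5.93 corresponds to 61.0-fold. A second DKK1 probe gave 3.27.

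CCN1, a secreted matrix-associated protein and a well-known target of YAP, read 12.10, 12.13 and 11.27 in A and 8.23, 7.64 and 8.20 in B. With vector at 8.43, 8.05 and 7.90, the B arrays overlapped vector and the A arrays alone were high, by 14.04-fold over B. TNFRSF12A, the receptor of the cytokine TWEAK, averaged 11.54 ± 0.50 (SD, n = 3) in A, 8.05 ± 0.07 in B and 9.12 ± 0.09 with vector. The scavenger receptor gene COLEC12 averaged 8.87 ± 0.43 in A, 5.45 ± 0.08 in B and 6.23 ± 0.06 with vector. BATF3, a transcription factor of the AP-1 family, differed by 3.22, with vector between the groups.

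The other 9 genes of this set had vector and A close together and B alone low. RAC1, which organizes actin at the cell edge, read 12.46, 12.42 and 12.37 in A, 11.99, 11.97 and 11.95 with vector, and 8.74, 8.64 and 8.74 in B. B was 13.1-fold below A by this probe, while a second RAC1 probe gave a difference of 1.11. TXNDC12, a thioredoxin-like protein of the endoplasmic reticulum, read 11.08, 11.13 and 11.26 in A and 7.52, 7.63 and 7.95 in B, with vector at 11.47, 11.51 and 11.54. TNFRSF21, the death receptor DR6, read 10.90, 10.75 and 11.19 in A and 7.55, 7.45 and 7.85 in B, beside vector at 11.02, 11.01 and 10.997. For each of these 3 genes all B arrays lay below every other array, and A and vector lay close together.

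The calcium-binding protein gene S100A16 differed by 3.37, the galactosyltransferase gene B4GALT5 by 3.18 and CENPV, a centromere protein gene, by 3.01. The deubiquitinase gene USP38 differed by 2.90, CLPTM1L by 2.76 and YWHAZ, the 14-3-3 zeta protein, by 2.72. In all 6 the vector mean was within 2-fold of A. A second YWHAZ probe gave only 0.45, so the probes of YWHAZ and of RAC1 disagree in size though not in sign. YWHAZ also has near-identical processed copies in the genome that a probe may read.

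**Figure D3:**
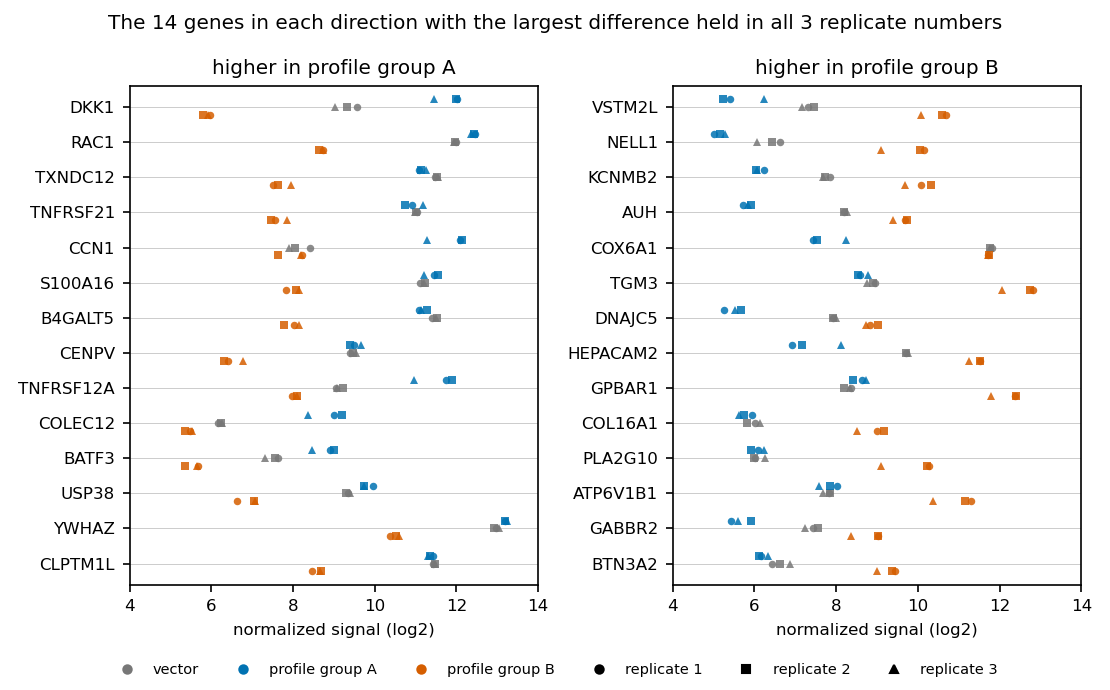
Normalized log2 signal of the leading genes, 14 in each direction, ranked by the smallest difference over the 3 replicate numbers, for vector (grey), profile group A (blue) and profile group B (orange), with a marker shape for each replicate number. On the left most genes have grey and blue points together and orange points low, and on the right the orange points are high.

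Among genes higher in B, VSTM2L read 5.40, 5.22 and 6.23 in A and 10.69, 10.59 and 10.09 in B, with vector at 7.30, 7.45 and 7.18, a 28.6-fold difference. NELL1, a secreted protein with EGF-like domains, read 5.01, 5.15 and 5.28 in A and 10.15, 10.06 and 9.10 in B, beside 6.63, 6.42 and 6.07 with vector. In both genes A lay below vector and B above it on every array.

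KCNMB2, a regulatory subunit of calcium-activated potassium channels, AUH, a mitochondrial enzyme of leucine breakdown, HEPACAM2, an immunoglobulin-family adhesion protein, and GABBR2, a subunit of the GABA-B receptor, had the same arrangement, at -3.92, -3.78, -4.03 and -3.16. A second KCNMB2 probe gave -1.43. The other 6 genes set apart in this way were high in B alone, with vector and A within 2-fold of each other. TGM3, a transglutaminase, read 12.82, 12.74 and 12.06 in B against 8.59, 8.54 and 8.77 in A and 8.96, 8.89 and 8.75 with vector. GPBAR1, the cell-surface bile acid receptor, read 12.38, 12.40 and 11.79 in B against 8.64, 8.42 and 8.73 in A. The secreted phospholipase gene PLA2G10 differed by -3.79, ATP6V1B1, a subunit of the vacuolar proton pump, by -3.13, the collagen gene COL16A1 by -3.12 and BTN3A2, a butyrophilin, by -3.07. A second BTN3A2 probe gave -1.28.

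COX6A1, a subunit of cytochrome c oxidase, was low in A alone. It read 7.43, 7.54 and 8.23 in A, 11.72, 11.74 and 11.73 in B, and 11.80, 11.76 and 11.76 with vector, so that A was 15.9-fold below B while B and vector had means of 11.73 and 11.77. DNAJC5, a chaperone of synaptic vesicles, was also low in A, at 5.25, 5.67 and 5.51 against 7.91, 7.93 and 7.99 with vector and 8.83, 9.01 and 8.72 in B.

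Gene lists of pathways were then read in the same way. A member was counted as at least 2-fold higher only where the array values of A and B did not overlap. The counts of the lists stand beside 6.53% of all genes at least 2-fold higher in A and 7.7% at least 2-fold higher in B, and their medians beside -0.01 for all genes. No list was tested. Differences within a replicate number set arrays side by side that no label states to be pairs. In bulk RNA, fewer cells of a kind and less RNA per cell cannot be told apart.

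**Figure D4:**
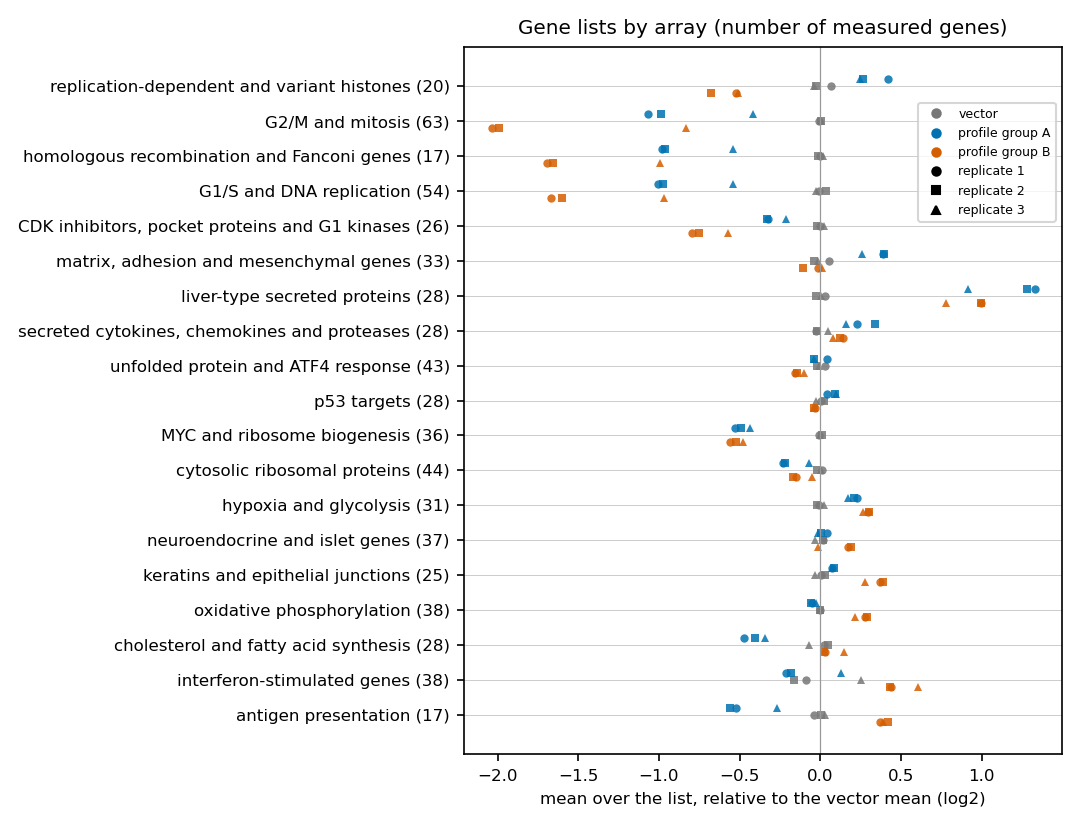
Mean over the measured genes of each list on each array, relative to the mean of the vector arrays, on a log2 scale, with the number of genes in brackets. Cell division lists lie left of vector in both groups and, within each replicate number, further left in B. Histones lie right of vector in A and left in B, and interferon and antigen presentation genes lie right of vector in B.

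As list means, cell division genes were lower than with vector in both groups and, within each replicate number, lower still in B. Of 54 genes of G1/S and DNA replication, 10 were at least 2-fold higher in A and 0 in B, with a median difference of 0.56. Without the array of A labelled shRNA 2 replicate 3 this median was 0.365, and without background correction 0.324. Averaged over the list and relative to vector, A lay at -1.005, -0.97 and -0.54 and B at -1.67, -1.60 and -0.97 in numbers 1, 2 and 3. The groups thus touch, since number 3 of B stood level with numbers 1 and 2 of A, but within each number B was the lower. RRM2, the small subunit of the reductase that makes deoxyribonucleotides, read 9.29, 9.46 and 10.09 in A and 6.91, 6.73 and 8.85 in B, against 10.89, 10.86 and 10.65 with vector. FEN1, which trims the flaps of lagging-strand fragments, read 10.41, 10.48 and 10.83 in A and 8.25, 8.44 and 9.04 in B, with vector at 11.24, 11.23 and 11.28. DUT, which removes dUTP, differed by 1.64 and the replication initiator MCM10 by 1.58, but other probes gave as little as 0.35 for DUT and 0.98 for MCM10. CCNE1, cyclin E1, lay the other way at -0.68.

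Of 63 genes of G2/M and mitosis 11 were at least 2-fold higher in A and 0 in B, with a median of 0.79. In 51 of the 63 A was higher in all 3 numbers and in 0 B was, against 35.2% and 38% of all genes. No label states that arrays of the same number are pairs. Without regard to numbers, array values did not overlap in 23.8% of the 63, against 58% of all genes. The list means of both number 3 arrays stood nearer to vector, at -0.42 in A and -0.83 in B against -1.07 and -0.99 in A and -2.04 and -1.99 in B. Number 3 of B thus lay nearer to vector than numbers 1 and 2 of A, but within each number B was the lower. MAD2L1, a spindle checkpoint protein, read 9.46, 9.44 and 9.88 in A and 7.17, 6.68 and 8.05 in B, beside 10.85, 10.55 and 10.57 with vector. The spindle protein gene NUSAP1 differed by 1.97, BIRC5, which encodes survivin, by 1.70 and the kinesin gene KIF14 by 1.69. Without the array of B labelled shRNA 1 replicate 3, the list median was 1.20. It was 0.545 without the array of A labelled shRNA 2 replicate 3. A second BIRC5 probe gave 0.91. Of 17 homologous recombination and Fanconi genes 3 were at least 2-fold higher in A with no overlap of the array values, the nuclease gene EXO1 at 1.14, the helicase gene BLM at 1.03 and BARD1, the partner of BRCA1, at 1.01, and 0 in B, with a median of 0.49. A second EXO1 probe gave 0.77. RAD51AP1 had the largest difference of this list, 1.64, but its array values overlapped. The median of the homologous recombination and Fanconi genes was 0.813 without the array of B labelled shRNA 1 replicate 3. It was 0.383 without the array of A labelled shRNA 2 replicate 3.

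Of 26 CDK inhibitors, pocket proteins and G1 kinases, 4 were at least 2-fold higher in A and 1 in B, with a median of 0.32. CDK2, the partner of cyclins E and A, read 8.51, 8.58 and 9.12 in A and 5.93, 5.98 and 7.01 in B, against 9.53, 9.60 and 9.66 with vector. CDK4, the partner of D-type cyclins, read 11.55, 11.52 and 11.47 in A and 9.39, 9.39 and 9.70 in B, against 11.74, 11.84 and 11.84 with vector. CDK4 in A was thus close to vector while B was 4.07-fold below A. A second CDK2 probe gave a difference of only 0.47, below the 2-fold limit. The repressive E2F family member E2F7 differed by 1.89 and FBXO5, an inhibitor of the anaphase-promoting complex, by 1.20, with a second FBXO5 probe at 0.87. TFDP2, a dimerization partner of E2F factors, was higher in B, at 7.63, 7.68 and 7.46 against 6.04, 6.58 and 6.41. A second TFDP2 probe gave -0.60, so this call rests on 1 probe.

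**Figure D5:**
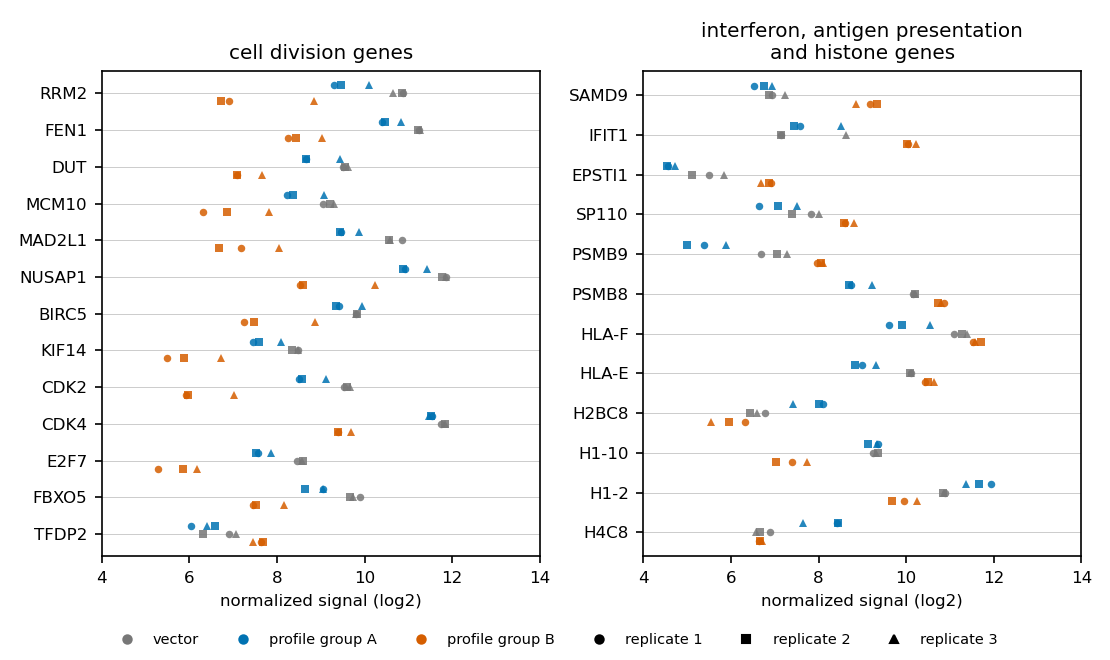
Normalized log2 signal on each array of genes named from the cell division lists (left) and from the interferon, antigen presentation and histone lists (right), for vector (grey), profile group A (blue) and profile group B (orange). CDK2 and CDK4 are lowest in B, the interferon and antigen presentation genes are highest in B, and the histone genes are highest in A or, for H1-10, level with vector in A.

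In promoter windows from RefSeq (GRCh38.p14), running from 250 bases before to 50 after the annotated start and matched by symbol for 10045 of the 12498 genes, the letters TTTGAA, the core of the cell cycle homology region, were searched on both strands. They stood in 37 of 54 G2/M windows (68.5%), against 9.98% of all windows, and in 13.3% of the windows of genes at least 2-fold higher in A and 7.82% of those higher in B. The E2F-type letters TTCCCGCC stood in 13 of 48 G1/S windows (27.1%), against 5.04% of all windows. For genes at least 2-fold higher in A the share was 6.51%, and for those higher in B 4.49%. Of the 10 G1/S members higher in A 2 held these letters, and RRM2, FEN1, DUT and MCM10 did not. A match describes the letters and is not a binding site, and genes of the same list share these letters whether or not they differed between the groups.

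Histone genes were higher in A. Of 20 measured, 9 were at least 2-fold higher in A and 0 in B, 17 did not overlap (85%, against 27.1% of all genes in this direction), and the median difference was 0.73. Relative to vector the list averaged 0.42, 0.27 and 0.25 in A and -0.52, -0.68 and -0.51 in B. Vector lay between. The linker histone gene H1-2 read 11.93, 11.66 and 11.36 in A and 9.96, 9.67 and 10.24 in B, with vector at 10.89, 10.85 and 10.86. H2BC8 differed by 1.90, H1-10 by 1.89 and H4C8 by 1.502. Core histone genes have near-identical copies that a probe may read together, so single members are uncertain. The lowest difference in the list was 0.03, for H3-3A, a histone made throughout the cell cycle.

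Interferon-stimulated genes, which are switched on through STAT and IRF factors and act against viruses, were higher in B. Of 38 measured, 11 were at least 2-fold higher in B and 0 in A, with a median difference of -0.42, and 25 were higher in B in all 3 numbers, against 38% of all genes. Relative to vector the list averaged -0.22, -0.18 and 0.13 in A and 0.44, 0.43 and 0.61 in B. The vector arrays themselves ranged from -0.16 to 0.25. SAMD9, an antiviral factor, read 6.52, 6.75 and 6.94 in A and 9.18, 9.33 and 8.87 in B, with vector at 6.94, 6.86 and 7.22. IFIT1, which binds foreign RNA, read 7.58, 7.45 and 8.51 in A and 10.04, 10.02 and 10.23 in B. Its vector value was 8.64 in number 3 and 7.14 and 7.15 in numbers 1 and 2, so the arrays numbered 3 of vector and of A were both raised. EPSTI1 was not detected on any A array and read 6.92, 6.87 and 6.67 in B, at least 3.64-fold higher. This bound sets the dim arrays each to the weakest signal that any detected probe gave there, or to their own if stronger. SP110, a nuclear body protein, differed by -1.59, and by as little as -0.57 with another probe. USP18, the protease that removes ISG15, went the other way at 0.92.

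The interferon-stimulated response element was searched as TTTC, 2 bases of any kind and TTTC, on both strands of the same promoter windows, and the stretches around it are shown for the named genes of this list that hold it, since it is the element through which this class of gene is known to respond. Capitals mark the match, all stretches end before the annotated start, and each is written along the strand of its gene.
IFIT1, chr10:89392495-89392554, plus strand: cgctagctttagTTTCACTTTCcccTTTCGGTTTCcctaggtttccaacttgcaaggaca
EPSTI1, chr13:42992257-42992316, minus strand: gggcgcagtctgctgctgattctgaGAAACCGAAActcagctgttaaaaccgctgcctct
SAMD9, chr7:93118081-93118140, minus strand: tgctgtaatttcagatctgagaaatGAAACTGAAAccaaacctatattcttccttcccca
IFIT1 holds 2 matches, EPSTI1 and SAMD9 1 each. No match was recorded for SP110, and a gene without a window would read the same. The element stood in 23 of 33 windows of the list (69.7%), in 7 of 10 of its members at least 2-fold higher in B, in 4.36% of all genes higher in B, in 2.27% of all genes higher in A and in 2.85% of all windows.

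Antigen presentation genes differed in the same direction and by more. Of 17, 8 were at least 2-fold higher in B and 0 in A, with a median of -0.93. Relative to vector the list averaged -0.52, -0.56 and -0.27 in A and 0.37, 0.42 and 0.39 in B, so that vector lay between the groups. PSMB9, a subunit of the immunoproteasome, read 5.38, 4.99 and 5.90 in A and 7.97, 8.07 and 8.10 in B, with vector at 6.69, 7.05 and 7.28. PSMB8, another such subunit, differed by -1.91, and the class I genes HLA-F and HLA-E by -1.58 and -1.48. Other probes of PSMB9 and PSMB8 gave differences as small as -0.65 and -0.46. Class I genes are near-identical in parts, so their single values are uncertain. Of the 4 genes named here HLA-F alone has a recorded match, marked in capitals as above. For the others a missing window would read the same as a window with no match.
HLA-F, chr6:29723253-29723312, plus strand: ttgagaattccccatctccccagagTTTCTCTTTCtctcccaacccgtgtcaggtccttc
The element stood in 7 of 14 windows of this list (50%), and in 2 of 7 windows of its members at least 2-fold higher in B (28.6%).

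Of 38 oxidative phosphorylation genes 3 were at least 2-fold higher in B, a share near the 7.7% of all genes, and 0 in A, with a median of -0.24. Means were higher in B for 27 of the 38, against 50.9% of all genes, and 19 did not overlap in that direction, against 31%. Besides COX6A1 these were CYCS, cytochrome c, at -1.47 and the complex I subunit gene NDUFS4 at -1.12. Of 28 genes of cholesterol and fatty acid synthesis 4 were at least 2-fold higher in B and 0 in A, and 21 were higher in B in all 3 numbers, against 38% of all genes, with a median of -0.44. SQLE, squalene epoxidase, read 10.38, 10.29 and 10.48 in A and 11.78, 11.77 and 11.65 in B, with vector at 11.46, 11.45 and 11.36. ACLY, which makes cytosolic acetyl-CoA, differed by -1.23, ACSS2 by -1.12, though another ACSS2 probe gave 0.34, and the cyclase gene LSS by -1.02. Of 31 hypoxia and glycolysis genes 4 were at least 2-fold higher in B, PFKFB4 at -2.25, ALDOC at -2.01, CA12 at -1.80 and NDRG1 at -1.61, but the median of the list was 0.06. Of 44 cytosolic ribosomal protein genes RPL13A alone passed 2-fold, at -1.06, with a median of -0.03, and it has many processed copies. Of 36 MYC and ribosome biogenesis genes 2 were at least 2-fold higher in A, NIP7 at 1.45 and NOP56 at 1.02. In B 2 were, the MYC antagonist MXD1 at -1.56 and NHP2 at -1.18. Both shares lay near those of all genes. The groups averaged alike, at -0.43 to -0.53 in A and -0.48 to -0.56 in B.

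Chromogranins stayed high in both groups, while genes of serotonin synthesis parted. Chromogranin A, CHGA, read 14.40 to 14.45 in A and 14.32 to 14.46 in B, against 14.25 to 14.36 with vector. Chromogranin B, CHGB, read 13.553 to 13.635 in A and 13.345 to 13.461 in B, against 13.524 to 13.631 with vector. For CHGB the B arrays thus lay slightly below all others. All 9 BON-1 markers looked up were detected on every array, though 4 of them were below every vector array on all 6 knockdown arrays. These were the transcription factor genes NKX2-2, INSM1 and FEV and the vesicular monoamine transporter gene SLC18A1. SCG5, a secretory granule protein gene, lay above every vector array on all 6. Of 37 neuroendocrine and islet genes 2 were at least 2-fold higher in A and 4 in B, with a median of 0.01. These counts lay near the shares of all genes. TPH1, the enzyme of the rate-limiting step of serotonin synthesis in such cells, read 7.65, 7.45 and 8.36 in A and 9.80, 9.54 and 9.62 in B, with vector at 9.88, 9.73 and 9.59. B and vector overlapped for TPH1, and A alone was low. DDC, which carries out the next step, read 10.66, 10.61 and 10.63 in A and 12.77, 12.81 and 12.08 in B, with vector at 10.19, 10.20 and 10.21. For DDC both groups lay above vector, B by more. The somatostatin receptor gene SSTR1 differed by -1.41 and the islet transcription factor RFX6 by -1.35. The vesicle GTPase gene RAB3C, at 1.33, and PDX1, a pancreatic homeodomain factor, at 1.30, were higher in A.

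Genes of secreted plasma proteins averaged above vector in both groups and split between them. The 28 measured averaged 1.33, 1.28 and 0.91 over vector in A and 1.00, 1.00 and 0.78 in B, 7 were at least 2-fold higher in A and 4 in B, and the median difference was 0.01. AFP, alpha-fetoprotein, read 10.24, 10.12 and 8.42 in A and 7.14, 7.03 and 7.06 in B, against 5.78, 5.82 and 5.74 with vector. RBP4, the retinol carrier, was not detected on any B array and was at least 4.396-fold higher in A. VTN, vitronectin, differed by 2.23 and APOM, an apolipoprotein, by 2.16. SERPINF1, an inhibitor of vessel growth, was higher in B, at 7.999, 7.70 and 7.86 against 5.10, 5.27 and 5.54 in A, and the complement gene CFB differed by -1.44.

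Matrix and adhesion genes were more often higher in A. Of 33, 9 were at least 2-fold higher in A and 3 in B, with a median of 0.35. Besides CCN1, these included the integrin subunits ITGAV, at 10.29, 10.21 and 10.15 in A against 7.78, 7.67 and 8.20 in B, and ITGB5 at 2.24, and the matrix protein gene THBS1 at 1.94. Vector lay between the groups for ITGAV, at 9.45, 9.20 and 9.34. The basement membrane genes COL4A1 and LAMB3 were higher in B, COL4A1 by at least 3.48-fold since it was not detected in A, and LAMB3 at -1.92 (10.14, 10.16 and 9.98 against 8.05, 8.27 and 8.19). Of 25 keratin and junction genes 0 were at least 2-fold higher in A and 2 in B, near the 7.7% of all genes. They were the mucin MUC1 at -1.995 (another probe -0.85) and the protease inhibitor SPINT1 at -1.55. The list had a median of -0.26. Without the array of B labelled shRNA 1 replicate 1 that median was -0.118.

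Single members of the secreted signalling and stress lists went both ways. Apart from p53 targets, their counts lay near the shares of all genes, 6.53% higher in A and 7.7% in B. Of 28 cytokines, chemokines and proteases 2 were at least 2-fold higher in A and 3 in B, with a median of 0.16. The chemokine gene CXCL1 read 6.71, 7.37 and 8.20 in A and 10.37, 10.33 and 10.30 in B, with vector at 8.41, 8.73 and 8.80. MMP10 differed by -1.15. TIMP3 was not detected on any A array and was at least 1.90-fold higher in B. It is counted among the 3 by its measured difference of -1.14, which its bound does not secure. TIMP2, at 2.26, and the urokinase gene PLAU, at 1.70, were higher in A. Of 28 p53 targets 4 were at least 2-fold higher in A (CCNG2 at 1.62, with a second probe at 0.52, TNFRSF10B at 1.38, GDF15 at 1.36 and MDM2 at 1.05) and 1 in B (CYFIP2 at -2.36), with a median of 0.09. Of 43 unfolded protein and ATF4 response genes 2 were at least 2-fold higher in A (EDEM1 at 1.39 and ATF3 at 1.15) and 3 in B (XBP1 at -1.03, SLC7A11 and ASNS at -1.01 each), with a median of 0.14. Second probes of XBP1 and ASNS, at -0.94 and -0.80, were short of 2-fold.

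Most markers of other cell types were not detected. Of 6 fibroblast markers only PDGFRB was detected on at least 3 arrays, of 5 haematopoietic markers with a probe LYZ and CD68, of 4 endothelial markers VWF, and of 4 hepatocyte markers ALB, APOA1 and TAT. VWF, at 6.61, 6.59 and 6.93 in B, was not detected in A, and was at least 3.37-fold higher in B. CD68, a lysosomal protein, differed by 1.93, with other probes as low as 0.52. Averaged over the 5 haematopoietic markers A lay at 5.995 to 6.12, B at 5.57 to 5.76 and vector at 5.57 to 5.80, and over the 4 endothelial markers A lay at 4.61 to 4.68, B at 5.003 to 5.25 and vector at 4.73 to 4.88. Over the 4 hepatocyte markers A lay at 5.60 to 5.91, B at 5.504 to 5.69 and vector at 5.11 to 5.35. Their average was thus above vector in both groups, as that of the secreted plasma proteins was. TAT alone read 4.38, 4.52 and 4.42 in B against 4.62, 4.54 and 4.51 with vector, and was not detected on any B or vector array. The fibroblast markers averaged 4.62 to 4.86 over all 9 arrays. The defining markers PTPRC, CD3E, PECAM1, CDH5, COL1A1 and COL3A1 did not reach detection on at least 3 arrays. The part of other cells in any difference was not tested.

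The size of the differences depended on the replicate number. Over all genes the median size was 0.45 in number 1, 0.44 in number 2 and 0.37 in number 3. For the 816 genes higher in A the medians were 1.49, 1.48 and 1.21, and for the 962 higher in B -1.51, -1.48 and -1.16. In 73.1% of all genes the 3 differences had the same sign.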

How the data were processed

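Total RNA of BON-1 cells was hybridised to 9 single-colour Illumina arrays (3 vector, 3 shRNA 1, 3 shRNA 2 by title). The deposited table holds signal intensity for 47231 probes, neither background-corrected nor normalized, and a detection p-value in steps of 1 in 770 negative controls, per the file headers and the values. GenomeStudio is named, with no version, in the submitters' processing notes. The authors' value table holds intensity of 47219 probes, apparently background-subtracted and quantile normalized (method not given in the sources used here; ranks matched the scanner signals of the same array), and was used as an alternative.

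Here limma 3.58.1 (R 4.3.3) corrected background with nec (offset 16, which understates differences of dim genes), followed by quantile normalization and log2. A probe was kept if 3 or more of the 9 arrays detected it at p under 0.05 (22011 probes). Names came from the platform annotation (30108 probes with 1 symbol, 8 with several, 17115 unlisted; 30069 matched RefSeq). For 3358 genes with several kept probes the brightest was used, leaving 12498 genes; 5267 kept probes had no name. Only the labelled contrast was tested (lmFit and eBayes on 9 arrays, Benjamini-Hochberg), and its script was tested on simulated data.

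Named genes were RABL6, 14 genes in each direction, and up to 4 list members in the majority direction plus up to 2 in the other. Members, lists and rules were chosen with earlier results of these data known. The fit had no replicate block. Deviations of same-numbered samples from the means of the labelled groups correlated at -0.893 to 0.153, where mixed profiles within a label set the negative values. From the means of vector, A and B they correlated at 0.115 to 0.317, above 0.1 in all 9 pairs. A and B were formed from these values, and arrays of different numbers were not compared. Pairing by number is therefore possible but not established, and no label states it. The number of arrays limits the precision.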

Additional observations from a re-analysis of the deposited data

How the results depend on the processing

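Differences between the profile groups depended most on background correction. Without it, 346 genes were at least 2-fold higher in A and 376 in B, and with normexp and an offset of 50 they were 508 and 583, since a larger floor shrinks differences of dim genes. At a 1.5-fold limit they were 1909 and 2230. Leaving out arrays or replicate numbers gave 775 to 990 and 892 to 1182. By label, 0 genes were called with limma in every alternative, the replicate block included (0 called, 64 at an unadjusted p under 0.05), except without both shRNA arrays numbered 2 (5152). Other unadjusted counts ran from 39 to 1571.

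List medians moved beyond their spread as follows. Without background correction they were -0.21 for interferon, -0.43 for antigen presentation, 0.18 for matrix, -0.11 for keratins, -0.30 for cholesterol, 0.20 for CDK inhibitors and kinases, 0.056 for cytokines and 0.58 for histones. With an offset of 50 they were -0.64 for antigen presentation, 0.26 for matrix, -0.15 for keratins, -0.35 for cholesterol, 0.25 for CDK inhibitors and kinases and 0.61 for histones. Under median centring they were -0.17 for oxidative phosphorylation, -0.19 for keratins, -0.39 for cholesterol, 0.20 for the unfolded protein response, 0.092 for hypoxia and 0.37 for CDK inhibitors and kinases. Without a filter they were -0.39 for antigen presentation, -0.044 for neuroendocrine genes, 0.082 for matrix, -0.088 for keratins and 0.065 for cytokines. With the mean of all probes they were -0.62 for antigen presentation, 0.078 for MYC, -0.061 for neuroendocrine genes, -0.080 for keratins, -0.39 for cholesterol and 0.93 for histones. Cyclic loess gave -0.053 for neuroendocrine genes. With probes detected on all 9 arrays the cytokine median reversed, to -0.020. Medians near 0 (neuroendocrine, MYC, ribosomal and secreted plasma proteins) also changed sign under some alternatives and have no settled direction. The cause was not tested.

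Leaving out arrays or numbers, medians ran from 0.365 to 0.753 for G1/S, 0.545 to 1.20 for G2/M, 0.383 to 0.813 for homologous recombination, 0.053 to 0.176 for p53 targets, -0.27 to -0.17 for oxidative phosphorylation, -0.048 to 0.085 for MYC, 0.28 to 0.41 for matrix, -0.50 to -0.34 for cholesterol, -1.10 to -0.81 for antigen presentation, 0.0071 to 0.14 for hypoxia and -0.58 to -0.38 for interferon. They ran from -0.051 to 0.15 for secreted plasma proteins, -0.28 to -0.12 for keratins, -0.14 to 0.020 for neuroendocrine genes, 0.043 to 0.29 for cytokines and 0.65 to 0.85 for histones. For single named genes arrays were not left out. Of 111, 79 moved beyond their spread without background correction and 55 with an offset of 50, and none changed direction under the settings that gave a value (99 genes with detection on all 9 arrays). Signals near background limit what dim genes can show.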
